A study of Homo sapiens with 2 samples.

Results

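A set of E2F transcription factor genes and the RB family of pocket protein genes, together 10 genes of the 20037 protein-coding genes in the RefSeq table used here, were taken by name. They comprise the activator genes E2F1, E2F2 and E2F3, the repressor genes E2F4, E2F5, E2F7 and E2F8, and the pocket protein genes RB1, RBL1 and RBL2. Other E2F genes were not analysed here, so the repressor group is not the whole class. Every ETV4 peak whose interval reached within 10 kb of a gene was assigned to it, which gave 20 of the 54389 peaks of the series. The data are from 1 chromatin immunoprecipitate (ChIP-seq). The cells were A549, an established human non-small cell lung cancer line, carrying an shRNA against the ETS transcription factor ETV4 and transfected with Flag-tagged ETV4, and the precipitate was made with a Flag antibody, which the sample labels give as Sigma F1804 and the methods of the study as a CST product. The input library came from the same transfected cells without antibody and enters only as the control level behind each fold enrichment. Each group held 1 library, so no value has a replicate error and no test between conditions could be made, and the binding is that of a transfected, tagged protein.

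The RB and E2F proteins form the switch that commits a cell to S phase. In a resting cell, pocket proteins hold E2F factors on their target promoters and keep those genes silent. Cyclin D with CDK4 or CDK6, and then cyclin E with CDK2, phosphorylate the pocket proteins, which release the activator E2Fs, and genes for DNA synthesis are transcribed. E2F4 and E2F5 act mostly as repressors together with the pocket proteins encoded by RBL1 (p107) and RBL2 (p130), whereas E2F7 and E2F8 are atypical repressors that bind DNA without a DP partner and lower E2F target genes late in S phase. ETV4 binds, as other ETS factors do, to sites built around GGAA. How strongly ETV4 occupied each arm of the switch, and in particular the activator against the repressor genes, is the comparison described here.

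The sequences at the starts of these genes fall into different kinds, and 3 stretches are shown first because they lie under strong peaks and differ in how many GGAA cores they hold. All are RefSeq sequences on GRCh38.p14, written 5′ to 3′ on the strand of the gene, which is the plus strand for E2F4 and E2F3 and the minus strand for E2F7. Capitals mark GGAA or its reverse complement TTCC. The summit of the E2F4 peak lies in the E2F4 stretch, that of the E2F3 peak in the stretch before the second of the E2F3 starts that RefSeq lists, and the E2F7 stretch lies within the E2F7 peak but not at its summit.
E2F4 (chr16:67192080-67192179): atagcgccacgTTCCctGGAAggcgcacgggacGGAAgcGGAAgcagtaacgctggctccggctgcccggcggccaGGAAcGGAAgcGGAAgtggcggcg
E2F7 (chr12:77065715-77065814): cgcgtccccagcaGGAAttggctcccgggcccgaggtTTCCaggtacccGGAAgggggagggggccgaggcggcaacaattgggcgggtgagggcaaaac
E2F3, second start (chr6:20403364-20403513): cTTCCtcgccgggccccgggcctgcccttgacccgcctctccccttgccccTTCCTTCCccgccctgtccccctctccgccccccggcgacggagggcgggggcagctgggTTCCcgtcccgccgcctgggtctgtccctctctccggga

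The E2F4 stretch runs from 75 bases before the start to 25 bases after it and held 7 GGAA cores, among them 4 in the form CGGAAG, as closely spaced pairs on either side of the summit. In the whole promoter window of 300 bases, from 250 before the start to 50 after, E2F4 held 10 GGAA cores. Windows with 10 or more were 0.735% of all 34943 promoter windows in the table, and windows with 4 or more CGGAAG were 0.295% of them (103 windows) and 0.546% of those that a peak overlapped. Both cutoffs are the counts of the E2F4 window itself, and CGGAAG was looked at after the E2F4 sequence had been seen. At least 1 CGGAAG was in 19.4% of all windows and in 33.6% of those overlapped by a peak. A single GGAA core is common, since 95.4% of all windows hold at least 1 on either strand and the median window holds 3.

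A second set is shown because the starts of E2F1, E2F2 and RBL1 and the first start of E2F3 carry the letters of an E2F site. The promoters of E2F4, E2F7 and RBL2 and the second start of E2F3 do not within this window. E2F5 and E2F8 had no promoter window to search, so the repressor genes were covered only in part. Here capitals mark any of TTTCCCGC, TTTCGCGC, TTTGCCGC and TTTGGCGC on either strand. The stretches end at the last base before the start and lie on the minus strand for E2F1, E2F2 and RBL1 and on the plus strand for E2F3.
E2F1 (chr20:33686386-33686495): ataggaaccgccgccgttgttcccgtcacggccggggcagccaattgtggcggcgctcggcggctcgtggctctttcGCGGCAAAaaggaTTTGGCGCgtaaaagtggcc
E2F2 (chr1:23531234-23531378): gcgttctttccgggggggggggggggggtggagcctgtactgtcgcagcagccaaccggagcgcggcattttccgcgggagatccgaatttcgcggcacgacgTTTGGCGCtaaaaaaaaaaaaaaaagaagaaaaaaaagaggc
E2F3, first start (chr6:20401769-20401878): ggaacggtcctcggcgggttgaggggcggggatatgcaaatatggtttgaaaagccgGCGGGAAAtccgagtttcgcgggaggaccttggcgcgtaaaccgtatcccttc
RBL1 (chr20:37095998-37096132): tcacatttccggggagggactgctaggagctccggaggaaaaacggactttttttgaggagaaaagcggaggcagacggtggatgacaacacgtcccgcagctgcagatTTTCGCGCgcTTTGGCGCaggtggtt

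An E2F string was present in 3.30% of all promoter windows and in 5.29% of the 14649 windows that a peak overlapped. E2F1 and RBL1 each held 2, and E2F2 and the first start of E2F3 held 1 each, all of them within 60 bases of the start. TTTCCCGC contains TTCC, so the E2F string of E2F3 at 53 bases before the start also holds 1 of the 4 GGAA cores of that window. The longer ETS core CCGGAA was found in 17.2% of all windows and in 30.4% of windows overlapped by a peak. Among the members it was in the windows of E2F2, E2F7 and RBL1. Its full form CCGGAAGT, in 4.11% of all windows and 8.39% of those overlapped by a peak, was in no window of a member. RBL1 had the longer core 129 bases before its start and had no peak. E2F2 and E2F7, which also had it, had start peaks enriched 6.54-fold and 45.8-fold. E2F1, E2F3, E2F4 and RBL2, without it, had start peaks enriched 8.70-fold, 74.6-fold, 23.2-fold and 15.2-fold. These matches are descriptions of the sequence in a fixed window and were not tested as binding sites. The element TTTGAA, the CHR element that the MuvB complex recognises, was in 15.2% of all windows and occurred in those of E2F3 and RBL2. RB1 was not examined in this way at its peak, because the only RB1 window in the table lies at an internal start of the gene that no peak overlapped.

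ETV4 occupied the start of 9 of the 10 genes, all but RBL1. The strongest peak was at the activator gene E2F3, with a fold enrichment of 74.6, and the weakest were at the other activator genes, E2F1 with 8.70 and E2F2 with 6.54. The 4 repressor E2F genes of the set lay between them, from 16.0 at E2F8 to 45.8 at E2F7. A peak interval within 1 kb of the start was found for 61.3% of the 15843 protein-coding genes whose strand is known, and one within 10 kb of the gene for 81.6% of all protein-coding genes. A start peak with a fold enrichment over 10 was found at 7 of the 10 family genes and at 44.5% of the genes of known strand. Fold enrichment here is the authors' ratio of the fragments at the summit to the control level, each with 1 added. The fragments at the summit were solved from that ratio and the p-value of the peak, and their exact Poisson 95% confidence intervals cover counting error only.

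**Figure D1:**
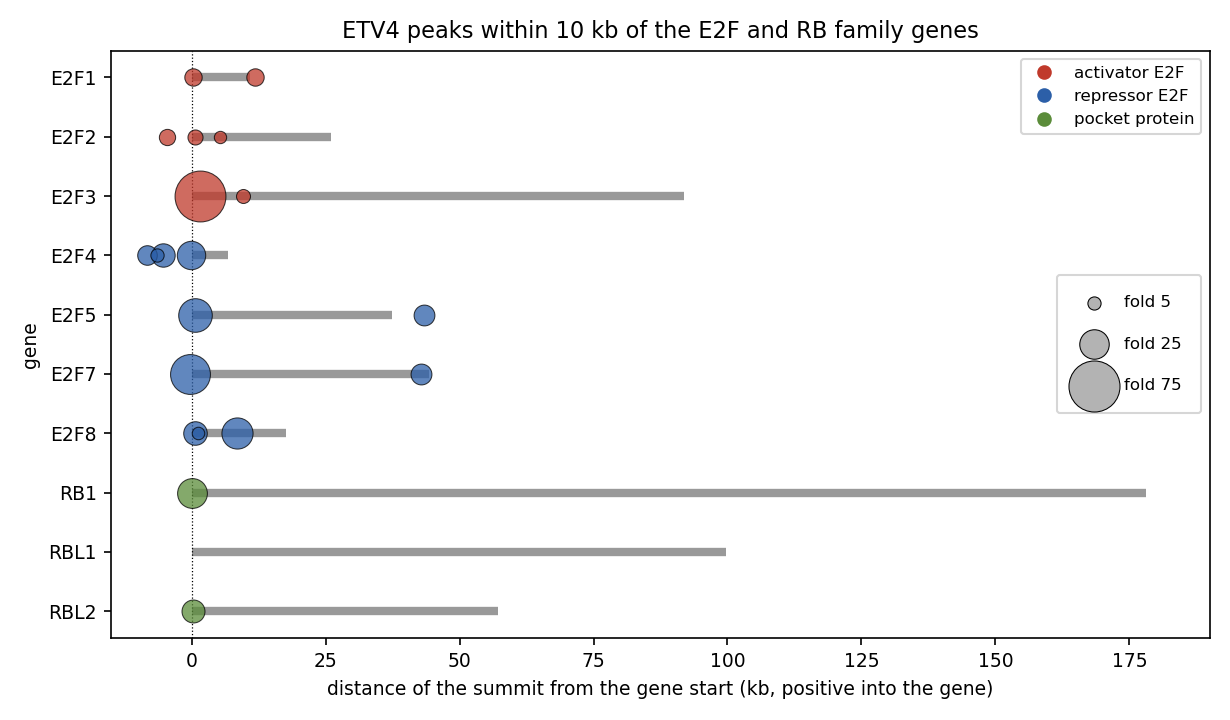
ETV4 peaks around the 10 genes, drawn by the distance of the summit from the gene start in kb (positive into the gene). Grey bars are the genes to scale, circles are peaks with an area proportional to fold enrichment, and colours give the role. In all, 9 genes have a circle at the start, RBL1 has none, and the largest circle is that of E2F3.

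The activator E2Fs are the transcription factors that switch on the S-phase genes once freed from RB. E2F3 lies on chromosome 6 from 20401879 to 20493714, and RefSeq lists 2 starts for it. Its start peak ran from 20400950 to 20404381 and covered both starts. At 3432 bp it was wider than 99.7% of all peaks in the list, and 97.7% of peaks were enriched less. The summit at 20403445 was 1566 bp inside the outermost start but 169 bp upstream of the second one, where 280 fragments (95% interval 248 to 315) stood over a control of 2.77, for a −log10 q of 440. The list gives this wide interval a single summit, so signal at the first start cannot be read separately. A second, narrow peak of 314 bp lay 9645 bp into the gene with a fold enrichment of 5.65, a −log10 q of 9.11 and a summit at 20411524 holding 19 fragments.

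E2F1, the founding member of the family and itself a classical E2F target, lies on chromosome 20 from 33675477 to 33686385. Its start peak, from 33685401 to 33686931, was 1531 bp wide with a fold enrichment of 8.70 and a −log10 q of 25.3. The summit at 33686073 lay 312 bp inside the gene and held 40 fragments (28.6 to 54.5), and the control level of 3.71 was the highest among the start peaks of the family. Beyond the other end of the gene, a peak spanning 33674103 to 33674983 was enriched nearly alike, 8.71-fold, with 43 fragments at its summit at 33674489 and a −log10 q of 26.9. That summit was 988 bp past the 3′ end of E2F1 and also within 1 kb of an end of NECAB3, so this peak is shared with the neighbouring gene.

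E2F2, on chromosome 1 from 23505212 to 23531233, had the weakest start peak. It ran from 23530432 to 23531706 with a width of 1275 bp, a fold enrichment of 6.54 and a −log10 q of 11.5. Its summit at 23530571 was 662 bp inside the gene with 21 fragments (13.0 to 32.1) against a control level of 2.36. As at E2F1, a peak away from the start had a slightly higher fold than the start peak, and the pileup intervals of the pair overlapped. It lay 4540 bp upstream, from 23535337 to 23536009, with a fold enrichment of 7.60, a −log10 q of 13.9 and 22 fragments at the summit at 23535773. The third peak, 5230 bp inside the gene from 23525960 to 23526189, was only 230 bp wide, with a fold enrichment of 4.37, a −log10 q of 4.39 and 11 fragments at its summit at 23526003, which is the lowest fold enrichment among the 20 peaks.

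Among the repressors, the atypical factor E2F7 had the strongest start peak. The gene lies on chromosome 12 from 77021251 to 77065569, and the peak ran from 77064757 to 77066338, 1582 bp. It was enriched 45.8-fold, more than 92.7% of all peaks, and its −log10 q was 215. The summit at 77065906 was 337 bp upstream of the start and held 156 fragments (132 to 182) against a control level of 2.43. Near the far end of the gene, 42891 bp from the start, a 366 bp peak spanned 77022453 to 77022818. It was enriched 12.5-fold at its summit at 77022678, with 30 fragments and a −log10 q of 26.8.

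E2F8, the partner of E2F7 in restraining E2F targets, lies on chromosome 11 from 19224063 to 19241655. Its strongest peak by fold was not at the start. Here, unlike at E2F1 and E2F2, the fold intervals of the pair (21.6 to 35.6 and 12.5 to 20.2) did not overlap. Both intervals hold the control level fixed. RefSeq's direction of the gene was not in the tables used, so both ends were searched, and only the end at 19241655 had a peak. That peak, from 19240804 to 19241857, was 1054 bp wide with a fold enrichment of 16.0, a −log10 q of 61.7 and a summit at 19241102, 553 bp inside the gene, with 69 fragments (53.7 to 87.3) over a control level of 3.38. The strongest peak lay 8518 bp inside, spanning 19232896 to 19233512, and was enriched 28.0-fold with a −log10 q of 79.6. Its summit at 19233137 held 63 fragments (48.4 to 80.6), so the pileups of the pair overlapped within counting error, and the higher fold went with a control level of 1.29. A narrow peak of 282 bp, spanning 19240236 to 19240517, was enriched 4.51-fold, with a −log10 q of 4.34 and 10 fragments at its summit at 19240440.

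E2F4, the main E2F of resting cells, is the shortest of the genes, 6.76 kb on chromosome 16 from 67192155 to 67198918, and had the most peaks. The start peak ran from 67191925 to 67192782 and, at 858 bp, was the narrowest of the 9 start peaks. It was enriched 23.2-fold, and its −log10 q was 88.5. The summit at 67192128 was 27 bp upstream of the start, between the pairs of CGGAAG in the sequence shown earlier, and held 82 fragments (65.2 to 102) over a control level of 2.58. The other 3 peaks lay 5409 to 8344 bp upstream. The strongest of them, from 67186533 to 67186994 with its summit at 67186746, had a fold enrichment of 15.8, a −log10 q of 35.6 and 35 fragments. The widest, from 67183172 to 67184676 with a summit at 67183811, had a fold enrichment of 11.1 and a −log10 q of 21.3 and sat within 1 kb of ends of EXOC3L1 and MATCAP1. Between them, a peak of 264 bp, spanning 67185570 to 67185833 with its summit at 67185628, was enriched 5.11-fold with 11 fragments and a −log10 q of 5.53.

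E2F5, the closest relative of E2F4, lies on chromosome 8 from 85177154 to 85214518. One end had a peak, from 85176914 to 85178093, next to the divergent transcript E2F5-DT. It was 1180 bp wide with a fold enrichment of 32.5 and a −log10 q of 139, and its summit at 85177704, 550 bp inside the gene, held 113 fragments (93.1 to 136) over a control level of 2.50. The other peak, from 85220107 to 85221005, was 6095 bp beyond the far end of the gene at ends of RBIS and LOC124901969, with a fold enrichment of 12.5, a −log10 q of 48.0 and 62 fragments at its summit at 85220613.

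The pocket proteins are named for the shared domain with which they bind E2Fs. Of their 3 genes, RB1 and RBL2 had a start peak and RBL1 had none. RB1, the retinoblastoma gene, spans 178 kb on chromosome 13 from 48303751 to 48481890 and had 1 peak. It ran from 48303042 to 48304541 over the outermost start and an end of the divergent transcript RB1-DT, with a fold enrichment of 25.6 and a −log10 q of 96.2. The summit at 48303822 was 71 bp inside the gene and held 85 fragments (67.9 to 105) against a control level of 2.36. RBL2 on chromosome 16, from 53434471 to 53491648, likewise had only a start peak, from 53434363 to 53435566, enriched 15.2-fold with a −log10 q of 41.8. Its summit at 53434714 was 243 bp inside the gene and held 45 fragments (32.8 to 60.2). RBL2 has 2 listed starts, and the peak overlapped the promoter windows of both.

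RBL1 on chromosome 20, from 36996349 to 37095997, had no peak within 10 kb. The nearest peaks lay 44.6 kb below its lower end, closest to SAMHD1 with a fold enrichment of 39.1, and 67.8 kb above its upper end, closest to MROH8 with a fold enrichment of 18.0. Among 1729 protein-coding genes with a searched window of 100 to 150 kb, the class to which RBL1 belongs, 6.59% had no peak, and their median was 2 peaks. The absence of a listed peak says that no signal at RBL1 passed the authors' threshold, whose lowest −log10 q in the list is 1.30, and not that ETV4 was absent there.

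**Figure D2:**
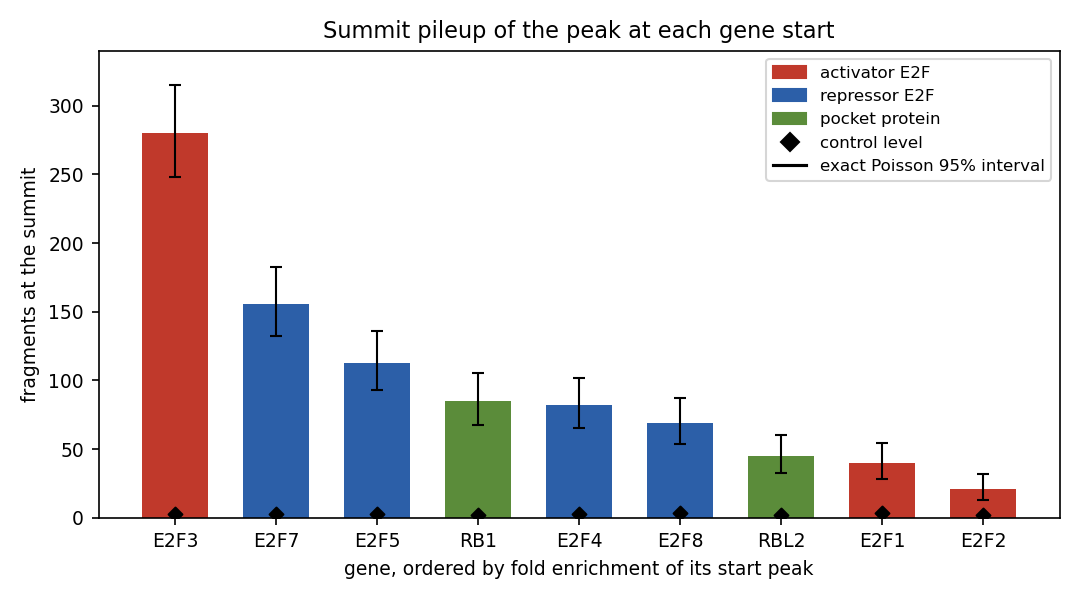
Fragments at the summit of the start peak for the 9 genes that have one, ordered by fold enrichment, with exact Poisson 95% confidence intervals and, as diamonds, the control level. E2F3 stands at 280 fragments, the 4 repressor E2F genes at 69 to 156, and E2F1 and E2F2 at 40 and 21, while the control level is at 2.03 to 3.71 throughout.

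By fold enrichment the start peaks were ordered E2F3, E2F7, E2F5, RB1, E2F4, E2F8, RBL2, E2F1 and E2F2. With the counting error of the pileup carried into the fold, E2F3 (66.1 to 83.8) was apart from E2F7 (39.0 to 53.5), the next in order. From E2F7 downwards each gene overlapped the next. These intervals hold the control level fixed, so they leave out the counting error of the input. Intervals that do not overlap are therefore apart by the counting error of the pileup only. E2F1 (6.28 to 11.8) and E2F2 (4.16 to 9.84) overlapped each other and lay below all 4 repressor genes, of which the lowest was E2F8 (12.5 to 20.2). RBL2 (11.2 to 20.2) overlapped both E2F1 and E2F8.

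The activator genes fell on both sides of the repressor genes, with E2F3 above and E2F1 and E2F2 below. Roles were given to whole genes, and the E2F3 summit lay 169 bp upstream of the second of its 2 listed starts. Products of the 2 starts were not told apart. The median fold enrichment at the start was 8.70 over the 3 activator genes and 27.9 over the 4 repressor genes, a ratio of 3.20, which was 3.66 without E2F3. The ratio of the means was 0.982, since the peak at E2F3 raised the mean of the activators to 29.9 against 29.4 for the repressors. The groups overlapped with E2F3 included, and the repressors were all higher with it left out. All 4 repressor genes had a start peak with a fold enrichment over 10, against 1 of the 3 activator genes. The share was 44.5% over the genes of known strand. For E2F5 and E2F8 both ends were searched. Summit pileups gave the same order of medians, 97.5 against 40 fragments. The genes are different loci of 1 library and not replicates of a condition, so no test was applied to this difference.

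The contrast in peaks per length changed with the peaks and genes counted. The activator genes with their flanks held 7 peaks in 189 kb, or 3.71 per 100 kb, and the repressor genes 11 peaks in 186 kb, or 5.91 per 100 kb. Without the long gene E2F3 the activators held 5 peaks in 76.9 kb, 6.50 per 100 kb, which turns the direction. The ratio of repressor to activator peaks per 100 kb was 1.59 with all peaks and 0.910 without E2F3. It was 9.13 with only peaks of a fold enrichment over 10, where the only activator peak left was the E2F3 start peak. The repressor peaks left there included those at ends of neighbouring genes near E2F4 (11.1-fold) and E2F5 (12.5-fold). The pocket protein genes held 2 peaks in 395 kb, 0.506 per 100 kb. Over all protein-coding genes the figure was 2.89 per 100 kb of summed window. Among genes with a peak, the shortest gene, E2F4, had the highest value, 14.9 per 100 kb, and the longest, RB1, the lowest, 0.505 per 100 kb. A gene with only a start peak, such as RB1, has a lower value the longer it is. The E2F4 peaks other than its start peak all lay in its upstream flank.

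**Figure D3:**
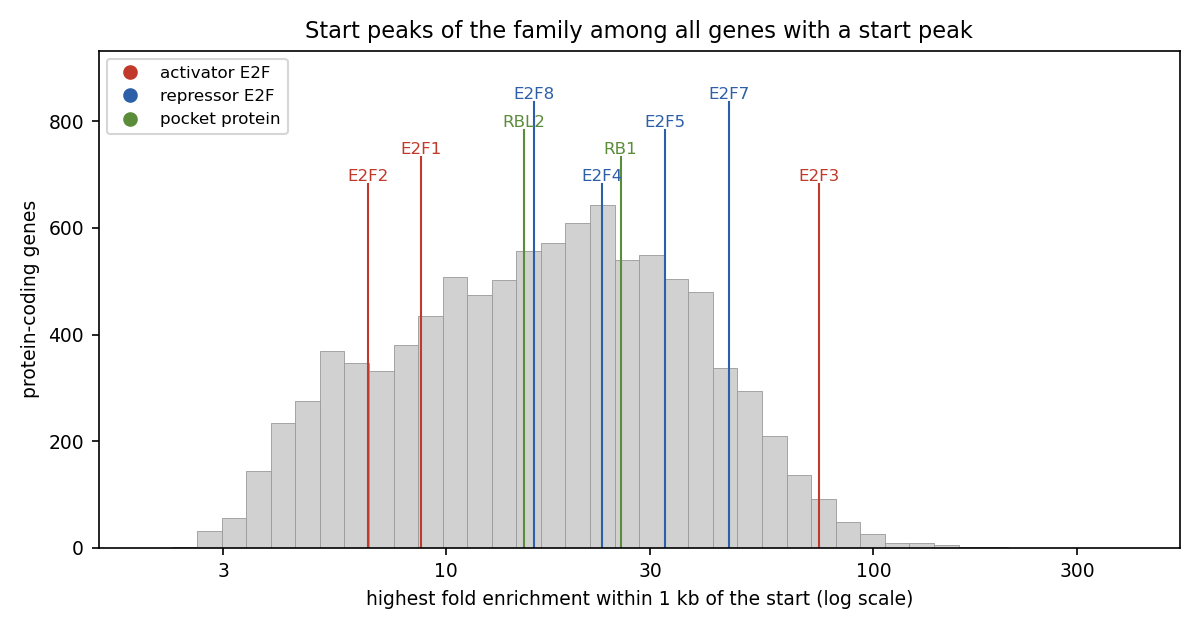
Highest fold enrichment within 1 kb of the start (log scale) for the 9717 protein-coding genes of known strand that have a start peak (grey), with the 9 family genes as coloured lines. E2F2 and E2F1 lie below the 25th percentile of 9.30, E2F3 lies far above the 75th percentile of 30.2, and E2F5 and E2F7 are also above it.

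Set against all genes with a start peak, the family was spread over nearly the whole range. The median of the highest start fold was 17.5 over 9717 genes of known strand and 23.2 over the 9 family genes. E2F3 exceeded 98.4% of these genes, E2F7 90.1% and E2F5 78.1%. RB1, E2F4, E2F8 and RBL2 fell in the middle, above 43.7% to 67.9% of them. E2F1 exceeded 22.8% and E2F2 14.5%. The control level at the start peaks ran from 2.03 to 3.71, and 95% of all peaks had one of at most 3.71. It was 4.05 at the E2F1 peak shared with NECAB3 and at the E2F5 peak near RBIS. At the transfected gene itself, ETV4, it ran from 9.11 to 412, above every value at the family.

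Apart from the 9 start peaks, 3 of the other 11 peaks were at ends of neighbouring genes and 8 were at no gene end or listed start. Medians over the start peaks were 23.2 for fold enrichment and 1275 bp for width. Over the 8 peaks at no gene end they were 6.63-fold, 340 bp and 20.5 fragments. Exons and introns were not used here. Of these 8, the peaks inside E2F8 and E2F7 and the one 5409 bp upstream of E2F4 exceeded a fold enrichment of 10. All 3 are at repressor genes, while the highest of the 8 at an activator gene was 7.60, upstream of E2F2. Control levels were 1.29, 1.48 and 1.28 at the 3 peaks, against 2.03 at the E2F2 peak. The pileups at E2F7 (30, 20.2 to 42.8) and E2F4 (35, 24.4 to 48.7) overlapped that at E2F2 (22, 13.8 to 33.3). The pileup at E2F8 (63, 48.4 to 80.6) did not. The share of all non-start peaks over that fold is not given here. Repressor genes held 7 non-start peaks and activator genes 4. The median fold enrichment of all 54389 peaks was 9.63. The summit lay upstream of the outermost start in 2 of the 9 start peaks, those of E2F4 and E2F7, and inside the gene in the other 7.

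The neighbours of the family in the pathway were taken from lists of known function. The first list holds genes for DP dimer partners, for MuvB subunits, which join E2F4 and a pocket protein in the DREAM repressor complex, and for MYBL1, MYBL2 and FOXM1, MYB and forkhead factors of which MYBL2 and FOXM1 work with MuvB to activate late cell cycle genes. Of these genes, 9 of 11 had a start peak, with a median fold enrichment of 24.9. LIN9, a core MuvB subunit, was highest at 53.2 with 142 fragments, and LIN37, another subunit, was lowest at 3.84 with 20 fragments. Of the genes for DP partners, TFDP1 had a fold enrichment of 7.01 with 15 fragments, and TFDP2 and TFDP3 had no start peak. With a fold enrichment over 10 required, 6 of the 11 remained, beside 44.5% of the genes of known strand.

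Upstream of RB, all 10 cyclin, CDK and associated genes of the list had a start peak, with a median fold enrichment of 13.0. CCNE2, one of the E-type cyclins that phosphorylate RB, was highest at 44.8, and CDK2, the kinase it activates, was lowest at 4.18. The partner kinases of the D-type cyclins also differed, CDK6 with 35.4 (30.1 to 41.4) and CDK4 with 4.88 (3.14 to 7.28). The other E-type cyclin, CCNE1, had 7.72 (5.52 to 10.5). A fold enrichment over 10 was reached by 6 of the 10, beside the same 44.5%.

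Of 24 textbook E2F targets, 23 had a start peak and UHRF1, a reader of DNA methylation, had none. The median fold enrichment was 15.1, and 14 of the 24 exceeded 10, again beside 44.5% of the genes of known strand. TYMS, thymidylate synthase, was highest at 41.6 with 126 fragments, and CCNA2, the S-phase cyclin A gene, was lowest at 3.24 with 11 fragments. The share of genes with a start peak was thus 81.8%, 100% and 95.8% in the lists and 90% in the family, beside 61.3% of genes of known strand. Both ends were searched for 2, 4 and 2 genes of the lists and for 2 of the family because their strand was not known. This can only add peaks and can raise the highest fold of a gene or the median of a list. It can also count a peak at the 3′ end of a gene, and CDK2 was among the genes searched in this way. No test was made on these lists, so nothing particular to the pathway is claimed.

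**Figure D4:**
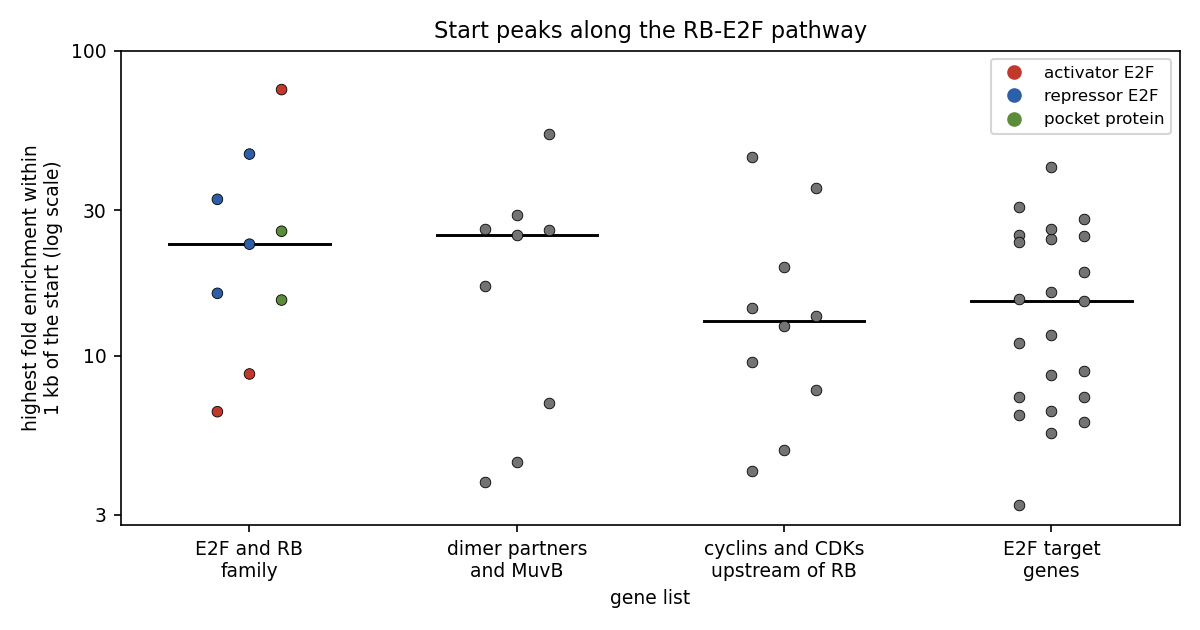
Highest fold enrichment within 1 kb of the start (log scale) for the genes with a start peak in the E2F and RB family and in 3 lists of the same pathway, with the median as a line. The medians are 23.2, 24.9, 13.0 and 15.1 from left to right, and E2F3 at 74.6 is above every gene of the lists.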

How the data were processed

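ChIP-seq was represented by 1 anti-Flag immunoprecipitate of ETV4-knockdown A549 cells that had received the tagged factor, called against 1 input. The authors deposited a narrowPeak list with a fold enrichment ratio, −log10 p and −log10 q for each peak, and a display score, equal to about 10 times the −log10 q, that was not used. The deposited interval bounds and summit offsets are in bp on hg38 and belong to no unit class other than positions. The submitters' processing notes name Bowtie2 2.4.1, SAMtools, MACS2 2.2.7.1 and deepTools 3.5.0, without parameters, and duplicate handling was not given in the sources used here. The list was called on the single library, with no pooling. Stricter calling would remove weak peaks, and unremoved duplicates would raise pileups.

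Positions are 1-based. The outer ends of 59679 genes came from RefSeq (GRCh38.p14). Strand, starts and sequence came from the RefSeq promoter table, which held 8 of the 10 genes. A start is the outermost 5′ end, or either end where no strand was known. The members and gene lists were chosen with earlier results of these data known. The genes named were all 10 members with every peak, the highest, the lowest and the peakless genes of each list, and genes near a member's summit. TFDP1, CDK4, CDK6, CCNE1 and the genes nearest to RBL1's outlying peaks were added after their values were seen.

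Pileup and control level were solved from fold and −log10 p, taking the fold as (pileup + 1)/(control + 1) and p as a Poisson tail. All 54389 peaks gave whole pileups to within 0.01, with a median of 26 fragments. In a simulation 100% of 4996 peaks were recovered, all at folds below those of the E2F3, E2F7 and E2F5 start peaks. Intervals are exact Poisson 95% and cover counting error of the pileup only, with the control level held fixed for those of the fold. Gene starts, windows and motifs were handled in Python 3.11.15 with pandas 2.3.3 and numpy 2.4.6, intervals with scipy 1.17.1, and figures with matplotlib 3.10.9. Thresholds, windows, groupings and motifs were varied.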

Additional observations from a re-analysis of the deposited data

How the results depend on the processing

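Over 9 results, 46 of 54 alternatives left the value within 1.5 times and on the same side of 1. For counts near their maximum this band is wide. A fall from 9 to 7 family genes with a start peak stayed within it. The ratio of repressor to activator start fold, 3.20 from medians, was 0.982 from means. The ratio of their peaks per 100 kb, 1.59, became 0.910 without E2F3. It became 9.13 with a fold enrichment over 10 required, which left only the E2F3 start peak among the activator peaks. That threshold also left 12 of the 20 peaks, 6 of the 10 cyclin and CDK genes and 14 of the 23 E2F targets with a start peak. CCGGAA was in the promoter windows of 2 of the 6 family genes that had a start peak overlapping their window. GGAA was in 6, CCGGAAGT in 0 and CGGAAG, added after seeing the data, in 3. Of all windows overlapped by a peak, 30.4%, 95.4%, 8.39% and 33.6% held them. The counts are over genes, with either of 2 windows counted for E2F3 and RBL2, and the percentages over single windows. Of the 9 genes with a start peak, E2F3 was lost when the summit had to lie within 1 kb of the outermost start and was kept when any listed start counted, an alternative added after seeing the data. No paired analysis was possible because each group held 1 library, so no library could be left out either. The median pileup of 26 fragments limits single weak peaks, and the input's own signal was not analysed here.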
